A study of Mus musculus with 2 samples.

Results

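DNA methylation in mammals is written by a small set of enzymes, and 9 of their genes were read on these arrays: the methyltransferase genes *Dnmt1*, *Dnmt3a* and *Dnmt3b*, the cofactor gene *Dnmt3l*, the maintenance factor gene *Uhrf1*, and *Tet1*, *Tet2*, *Tet3* and *Tdg*, whose products remove the mark. The members were every non-control probe carrying 1 of these 9 names, which gave 21 probes, out of 29923 genes on 39429 probes. The genes were proposed with the behaviour of *Dnmt3l* in these same arrays in view, so the values of the 9 genes are given as a description, without a test.

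The tissue was the ureter of mouse embryos of the NMRI strain at E18.5. *Pparg-cKO* embryos were Pax2-cre/+; Pparg(fl/fl), and controls were labelled Pparg(fl/?), cre-negative littermates by the study's methods, with the second allele not given for each embryo. *Pparg* encodes a lipid-sensing nuclear receptor, and the Pax2-cre transgene recombines in the nephric duct, in the epithelium of the ureter and in the collecting ducts, so the muscle and connective tissue in each sample were not targeted. RNA was pooled from ureters of several embryos of 1 sex, and each of the 2 arrays compared a *Pparg-cKO* pool with a control pool, female on the first and male on the second. The dyes were exchanged between the arrays, so that sex, dye and array changed together and cannot be told apart, and n = 2 stands for 2 pairs of pools.

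The direction of the ratios was not settled by the labels alone. The deposited table of fold changes, titled *Pparg-cKO* against control, ran opposite to the dye labels on both arrays, correlating with the red over green ratio at 0.989 (female) and -0.993 (male). All signs here are those of the deposited table, which is the likely direction because its columns name the comparison and because it is the direction in which the study's text and tissue sections describe superficial cell genes. Should the dye labels instead be correct, higher and lower change places throughout and the sizes do not change. The probe of *Pparg* itself gave a processed signal, the scanner software's background-corrected and dye-normalised brightness, of 12357 in the *Pparg-cKO* and 6113 in the control pool of the female pair. In the male pair it gave 12930 and 6688. The targeted transcript was thus higher in the pools that the deposited table calls *Pparg-cKO*, with a mean log2 ratio of 0.97 ± 0.02 (SD, n = 2). By the study's methods the recombined allele encodes a truncated, non-functional protein, and the probe begins at base 1562 of the transcript. Since it was not placed relative to the floxed exons, it does not check the deletion. The study's tissue sections at E18.5 describe a mutant *Pparg* transcript without these exons, at a higher level than in the control.

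As background, Dnmt1 copies methylation onto the new strand after replication, guided by Uhrf1, which binds hemimethylated CpG sites. Dnmt3a and Dnmt3b set new methylation. Dnmt3l has no catalytic activity of its own, binds Dnmt3a and Dnmt3b, stimulates them, and is best known from fetal germ cells, where imprints are set, and from embryonic stem cells. Tet enzymes oxidise methylcytosine and Tdg cuts out the oxidised base, which base excision repair replaces.

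*Dnmt3l* was read by 1 probe of 60 bases, placed by the array design on chromosome 10 from 77526112 to 77526171 (mm9) and beginning at base 1420 of its transcript. Its first 30 bases are shown because the largest difference among the 9 genes rests on this single probe.
Dnmt3l probe: atgaaagtctttcctagaaccagggcagat
RefSeq lists 3 starts of *Dnmt3l* transcripts (GRCm38.p6, plus strand), and a probe so far into the transcript does not say which start was used. The 250 bases before each start are therefore shown, with CpG dinucleotides, the sites these enzymes act on, in capitals.
chr10:78042037-78042286, start 1: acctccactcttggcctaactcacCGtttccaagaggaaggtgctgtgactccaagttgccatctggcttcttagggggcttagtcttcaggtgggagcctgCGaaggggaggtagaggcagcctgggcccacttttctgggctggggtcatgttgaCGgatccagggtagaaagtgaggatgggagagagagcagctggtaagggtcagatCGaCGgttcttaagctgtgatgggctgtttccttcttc
chr10:78049592-78049841, start 2: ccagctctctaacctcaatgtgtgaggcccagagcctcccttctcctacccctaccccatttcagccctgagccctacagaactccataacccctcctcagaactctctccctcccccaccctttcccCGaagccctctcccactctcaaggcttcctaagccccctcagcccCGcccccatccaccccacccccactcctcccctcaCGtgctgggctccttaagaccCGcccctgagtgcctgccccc
chr10:78055085-78055334, start 3: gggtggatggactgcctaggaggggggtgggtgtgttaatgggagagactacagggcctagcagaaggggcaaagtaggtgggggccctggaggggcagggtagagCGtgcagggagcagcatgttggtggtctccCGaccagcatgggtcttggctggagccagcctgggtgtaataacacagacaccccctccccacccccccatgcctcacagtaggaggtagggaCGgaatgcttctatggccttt
They held 5, 4 and 3 CpG dinucleotides, while the median over all 32851 RefSeq windows of this length was 6.0 and 50.4% of windows held more than 5. Of the 13 windows of the other members, 12 held more than 5, up to 51 in *Tet2*. The PPAR response element consensus AGGTCANAGGTCA, searched on both strands, had no match in the 3 *Dnmt3l* windows and is in 0.0335% of all windows. The hexamer AGGTCA, which the longer motif contains, had none either and is in 14.0% of all windows. It was present in 3 of the 13 windows of the other members, 1 each of *Dnmt3a*, *Uhrf1* and *Tet1*. The absence of a match says only that these letters are not in these windows.

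*Dnmt3l* was much lower in *Pparg-cKO* pools, on both arrays. The processed signal was 97.7 in the female *Pparg-cKO* pool against 569 in the female control pool, and 76.1 in the male *Pparg-cKO* pool against 491 in the male control pool. Both *Pparg-cKO* pools lay below both control pools, and the 2 control pools differed from each other by less than either differed from its *Pparg-cKO* pool. The 4 spots of the probe ran from 93.0 to 104 and from 546 to 586 in the female pools, and from 74.3 to 79.0 and from 477 to 503 in the male pools, and every spot was well above background. On processed signals the female pair differed 5.82-fold and the male pair 6.45-fold. With the normexp background correction and loess normalisation used for all ratios below, log2 ratios of -2.26 (female) and -2.44 (male) were obtained, a mean of -2.35 ± 0.13 (SD, n = 2) or 5.10-fold. The *Pparg-cKO* RNA was in the red channel of the female and in the green channel of the male array by the deposited direction, so the difference was seen in either dye orientation. By the size of this value *Dnmt3l* stood at rank 7 from the bottom of 22499 genes well above background.

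**Figure D1:**
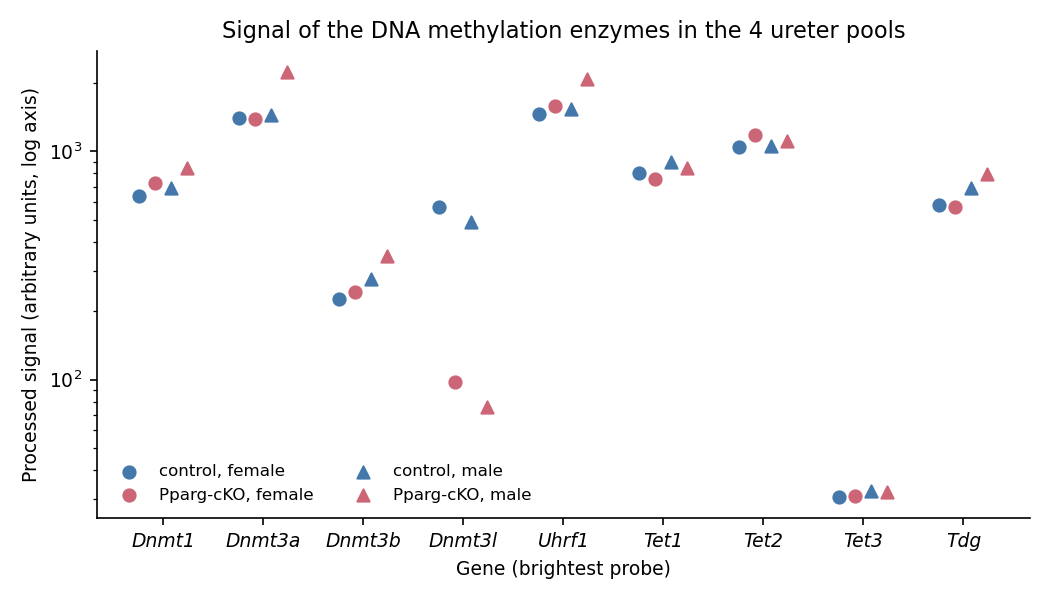
Processed signal (log axis) of the brightest probe of each of the 9 genes in the control (blue) and Pparg-cKO (red) pools, circles for the female and triangles for the male pair, 1 point a pool. Dnmt3l lies at 569 and 491 in the controls against 97.7 and 76.1 in Pparg-cKO pools; heights of different genes come from different probes and are not comparable.

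The fold rule used here, after the intensity and fold thresholds of the study's methods, asks for at least 1.5-fold in 1 direction on each array and a brighter channel of at least 100 processed units. Of the 9 members, 8 were bright enough for it and *Tet3* was not. *Dnmt3l* passed it as lower, beside 1.05% of 14015 bright genes, and no member passed as higher, beside 0.792%. Since the genes were chosen on this contrast, nothing is read from that count. The other 8 genes had mean log2 ratios from -0.02 to 0.34, with a median of 0.18, where the median of all genes tested was 0.009. Of these 8, *Dnmt1*, *Dnmt3b*, *Uhrf1* and *Tet2* (4) were higher on both arrays and 4 had opposite signs on the 2 arrays. Of all genes tested, 26.6% were higher on both arrays. The female array had the median of these 8 members at 0.03 and the male array at 0.26, against -0.006 and 0.01 for all genes tested.

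**Figure D2:**
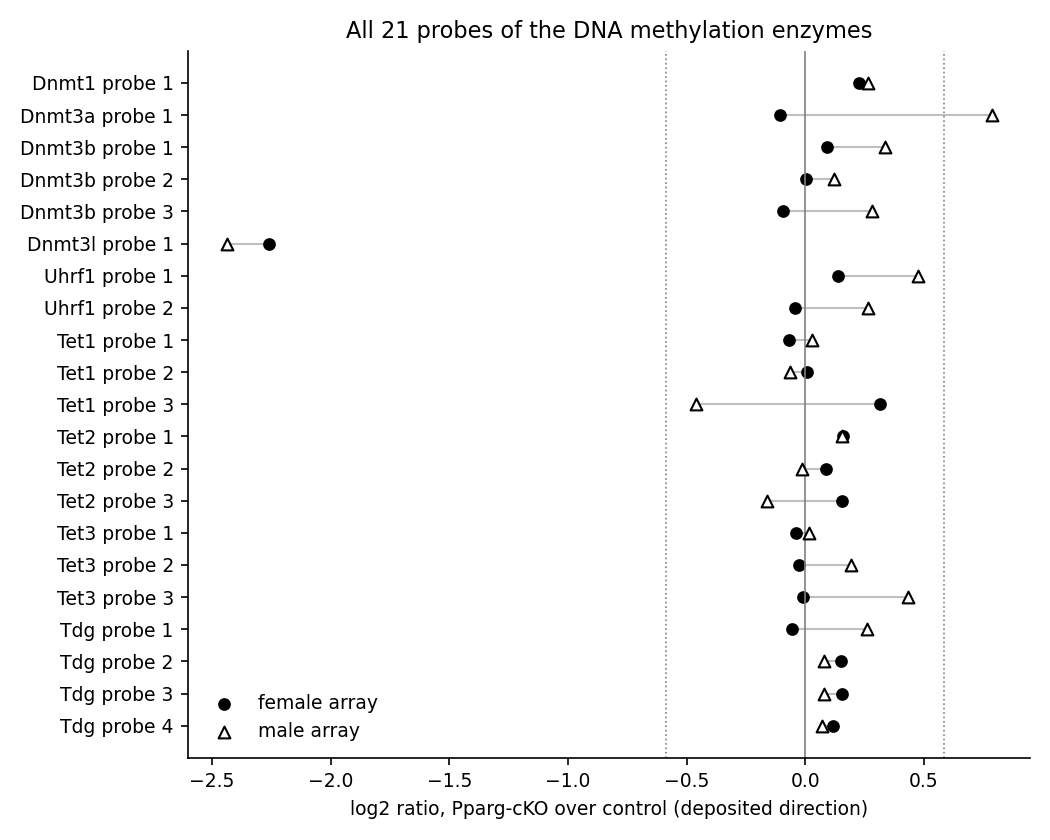
log2 ratio of Pparg-cKO over control for all 21 probes on the female (filled circle) and the male array (open triangle), with dotted lines at 1.5-fold and probe 1 of each gene the brightest. The Dnmt3l probe lies at -2.26 and -2.44, while of the other 20 probes only that of Dnmt3a crosses a dotted line, at 0.78 on the male array.

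Among the catalytic partners of Dnmt3l, *Dnmt3a* (probe on chromosome 12 from 3914320 to 3914379) gave 1384 and 1403 in the *Pparg-cKO* and control pools of the female pair, and 2228 and 1440 in those of the male pair. Only the male *Pparg-cKO* pool stood apart. Log2 ratios were -0.11 (female) and 0.78 (male), a mean of 0.34 ± 0.63 (SD, n = 2), so that its spread exceeded its mean. It passed 1.5-fold on the male array alone, where 6.3% of bright genes were higher by that much (1.95% lower), against 1.2% on the female array (1.85% lower). Its sign on the female array was the opposite.

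*Dnmt3b* had 3 probes. The brightest (chromosome 2 from 153513403 to 153513462) gave 243 and 225 in the *Pparg-cKO* and control pools of the female pair and 349 and 276 in those of the male pair. Both male pools exceeded both female pools, with log2 ratios of 0.09 (female) and 0.33 (male). The means of the 3 probes were 0.21, 0.06 and 0.09, and the last had opposite signs on the arrays.

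The maintenance genes differed little. *Dnmt1* (probe on chromosome 9 from 20711973 to 20712341, a span longer than its 60 bases) gave 730 and 638 in the *Pparg-cKO* and control pools of the female pair and 845 and 692 in those of the male pair, both *Pparg-cKO* pools being the higher of their pair. Its log2 ratios were 0.22 and 0.26, a mean of 0.24 ± 0.03 (SD, n = 2), which is 1.18-fold. *Uhrf1* (chromosome 17 from 56462770 to 56462829) gave 1575 and 1454 in the female and 2074 and 1527 in the male pair, again with the male *Pparg-cKO* pool highest. Its brightest probe had log2 ratios of 0.14 and 0.47 (mean 0.31 ± 0.24, SD, n = 2), and its dimmer probe -0.04 and 0.27. *Dnmt1* and *Uhrf1* are transcribed most in cells that replicate DNA. Over all 22499 genes tested, 1914 had an unadjusted p under 0.05 in limma. The list of 26 proliferation genes had 0 such genes, a median log2 ratio of 0.05, and 0 past the fold rule or called in limma. Its largest differences were *Cdt1*, which licenses replication origins, at -0.03 and 0.56, and *Mcm4*, a subunit of the replicative helicase, at 0.34 and 0.13 (female, then male).

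The genes of the demethylation side lay near 0. *Tet2* (chromosome 3 from 133126751 to 133126810) gave 1179 and 1043 in the *Pparg-cKO* and control pools of the female pair and 1115 and 1061 in those of the male pair, with log2 ratios of 0.16 and 0.15. Its other probes averaged 0.04 and -0.002, each with opposite signs. *Tdg* (chromosome 10 from 82112969 to 82113029) gave 572 and 581 in the female and 792 and 693 in the male pair, and its 4 probes averaged from 0.09 to 0.12. *Tet3* (chromosome 6 from 83319720 to 83319779) was dim, with 30.8 and 30.7 in the female and 32.2 and 32.6 in the male pair for its brightest probe and a mean log2 ratio of -0.01. Its 2 other probes gave at most 25.4. The brighter of these had log2 ratios of -0.01 and 0.43, a mean of 0.21 ± 0.31 (SD, n = 2), with 25.4 in the male *Pparg-cKO* and 16.2 in the male control pool, and the dimmer had -0.02 and 0.19.

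*Tet1* had 1 probe that went apart from its other 2. The brightest gave 755 and 806 in the *Pparg-cKO* and control pools of the female pair and 845 and 894 in those of the male pair, a mean log2 ratio of -0.02 ± 0.07 (SD, n = 2). The probe farthest upstream in the transcript gave 280 and 225 in the female pair but 260 and 368 in the male pair. Its log2 ratios were thus 0.32 and -0.46, higher in the red channel on both arrays. The first 30 bases of both probes (mm9, chromosome 10, from 62274448 to 62274507 and from 62301856 to 62301915) are shown because they read different stretches of the same gene, starting at base 6892 and base 3128 of the transcripts the design names.
Tet1 brightest probe: ctgtactcaaataacacacggcttctgttc
Tet1 upstream probe: taatcacatcaacgccgaggtcaggaatgc

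**Figure D3:**
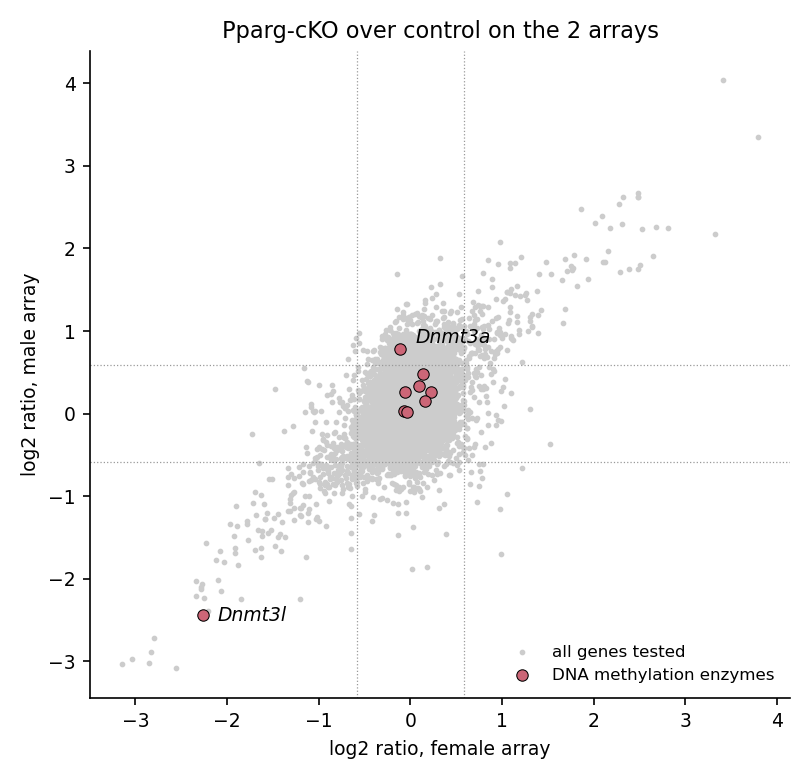
log2 ratio of Pparg-cKO over control on the female (horizontal axis) against the male array (vertical axis), 1 point a gene, grey for all 22499 genes tested and red for the 9 enzymes, with dotted lines at 1.5-fold. Dnmt3l lies low on both axes, Dnmt3a is high on the male array alone, and the other 7 enzymes lie inside the dotted square.

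Genes that work with these enzymes were listed by role, 71 in all, of which 68 were well above background and could be tested in limma, whose moderated test of the mean ratio against 0 rests on 2 arrays. Limma called 1 of them lower and none higher at an adjusted p of 0.05, beside 0.369% and 0.382% of all genes tested. Their median log2 ratio was 0.10. The fold rule was passed by 1 as lower and 1 as higher.

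In the methyl donor cycle, which makes S-adenosylmethionine and clears its product, 15 genes were tested with a median log2 ratio of -0.09. *Bhmt*, which remethylates homocysteine with betaine, fell, with log2 ratios of -0.93 and -0.87 and an adjusted p of 0.0462 (limma, Benjamini-Hochberg). Its processed signals were dim, at 22.8 and 62.4 in the *Pparg-cKO* and control pools of the female pair and 27.9 and 65.4 in those of the male pair, so the fold rule did not apply. Its 3 other probes averaged -0.68, -0.30 and -0.05. The call was lost in 4 of 6 alternatives. The adjusted p in limma was 0.101 with median centring, 0.0738 without the filter on dim probes, 0.181 with the median over its probes and 0.533 on the deposited table. In the same order, the mean log2 ratio of *Bhmt* was -0.85, -0.90, -0.49 and -1.36. On the deposited table limma called 0 genes of any kind.
*Ahcyl2*, a relative of the enzyme that hydrolyses S-adenosylhomocysteine, gave 750 and 1265 in the female and 741 and 1225 in the male pair. Its log2 ratio was -0.69 on each array, past the fold rule but with an adjusted p of 0.0875 in limma, which was 0.0231 without a normexp offset. With median centring its mean was -0.62 and it no longer passed the fold rule on both arrays. Its other probes averaged -0.89 and -0.14, the latter with opposite signs on the arrays.

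Chromatin proteins that target or guard DNA methylation had a median of 0.13 over 24 genes tested. Of these, 15 were higher and 0 lower on both arrays (26.6% of all genes tested were higher on both). The fold rule passed 0 and limma called 0, with 2 at an unadjusted p under 0.05, beside 1914 of all 22499 genes tested. The largest were *Cdca7l*, a relative of the Hells remodeller's partner Cdca7, at 0.31 and 0.32, and *Kdm2a* at 0.18 and 0.42. *Kdm2a* encodes a histone demethylase that binds unmethylated CpG. Of 10 readers of methylated CpG 0 passed the fold rule or limma (0 at an unadjusted p under 0.05), with a median of 0.09. *Mbd6* gave 0.06 and 0.79 and *Mbd3* -0.08 and 0.52, both with the male *Pparg-cKO* pool highest of the 4, as for *Dnmt3a* and *Uhrf1*.

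The 19 tested genes of cofactor supply, deamination and base excision repair had a median of 0.12. Of them 1 passed the fold rule and 0 were called in limma. At an unadjusted p under 0.05, 1 was higher and 3 lower, beside 1914 of all 22499 genes tested. On both arrays 12 of the 19 were higher and 4 lower, the latter including *Apobec1*, a cytidine deaminase, at -0.59 and -0.31. *Gadd45b*, a stress-induced gene implicated in DNA demethylation, gave 657 and 366 in the *Pparg-cKO* and control pools of the female pair and 875 and 423 in those of the male pair. Both *Pparg-cKO* pools lay above both controls, with log2 ratios of 0.84 and 1.07 and an adjusted p of 0.0510 in limma. That p ranged from 0.0037 without a normexp offset to 0.533 on the deposited table, where limma called 0 genes of any kind.

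**Figure D4:**
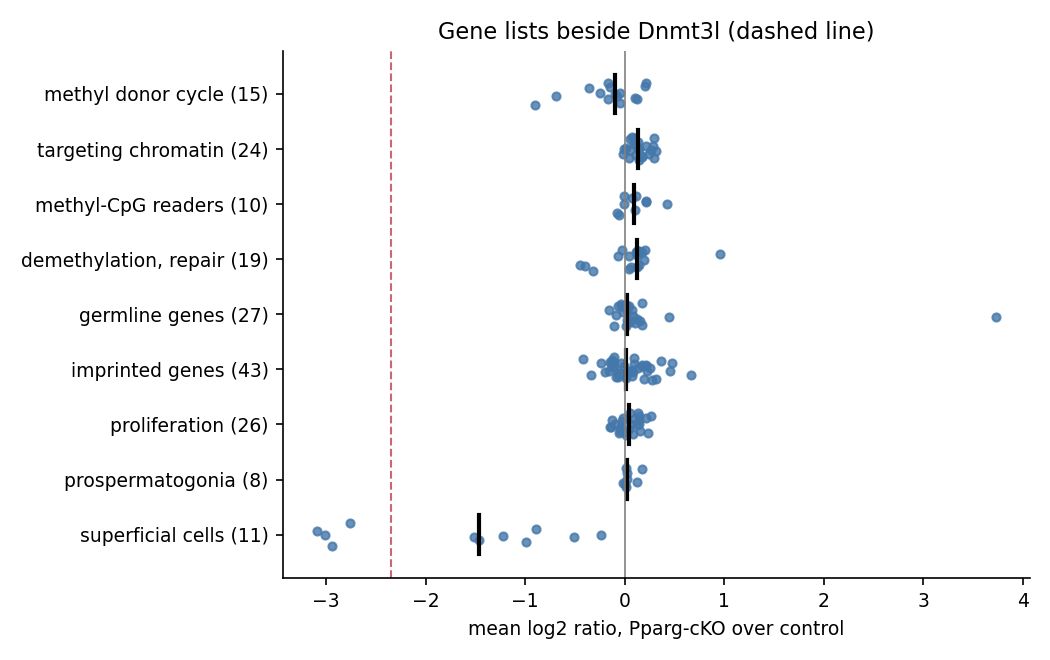
Mean log2 ratio of Pparg-cKO over control for the tested genes of 9 lists (number in brackets), 1 point a gene and a black bar at each median, with the dashed line at the -2.35 of Dnmt3l. Only the superficial cell list, most of which the study picked as lower on these arrays, has genes as low as Dnmt3l. The isolated germline gene at 3.73 is Prm1.

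Germline genes, many of which promoter methylation keeps silent in somatic tissue, were for the most part not detected or dim. Of 42 listed genes 40 were found by name and 27 were tested. *Majin* and *Magea9* were not found under these names and are not analysed here. Their median log2 ratio was 0.03 and 1 was called, *Prm1*, the sperm protamine that packs DNA. *Prm1* rose, from 17.7 in the female and 20.4 in the male control pool to 359 and 606 in the *Pparg-cKO* pools. Its log2 ratios were 3.41 and 4.04, with an adjusted p of 0.0062 in limma. On the deposited table, where limma called 0 genes of any kind, its mean was 4.59 and its adjusted p 0.533. The other sperm packaging genes did not pass, *Prm2* at -0.06 and -0.14 and *Tnp1* at -0.05 and 0.11, both with signals under 16. The meiotic cohesin gene *Stag3* gave 0.06 and 0.85, past 1.5-fold on the male array alone.
Of 46 imprinted genes, whose marks depend on Dnmt3l in germ cells, 43 were tested with a median of 0.02. The fold rule or limma passed 0 of them. At an unadjusted p under 0.05 there were 6, 4 of them higher, beside 1914 of all 22499 genes tested. *Dlk1* gave 0.14 and 1.19 and *Meg3* 0.14 and 0.82. These 2 neighbours of 1 imprinted cluster were highest in the male *Pparg-cKO* pool. Promoter methylation itself was not measured here.

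Markers of other cells were read beside *Dnmt3l*. For fetal germ cells, 8 of 10 markers were tested and 0 passed the fold rule or limma (0 at an unadjusted p under 0.05), with log2 ratios from -0.02 to 0.18. *Nanos2* and *Dppa3* were not well above background in any pool, *Dazl* gave at most 4.35 and *Ddx4* at most 19.1. *Nanos3*, with 201 and 197 in the *Pparg-cKO* and 209 and 194 in the control pools, and *Dnd1*, with 60.5 and 78.3 against 56.0 and 65.7, were well above background in all 4 pools. The summed signal of the list was 302 and 314 in the *Pparg-cKO* and 304 and 292 in the control pools. For gonadal soma, 9 of 11 markers were tested, 0 passed the fold rule or limma (1 at an unadjusted p under 0.05, lower). *Amh* was not well above background, while others were well above it in all 4 pools, among them *Foxl2* at 792 to 977, *Sox9* at 562 to 618, *Inha* at 268 to 477 and *Nr5a1* at 137 to 188.
Markers of the superficial cells, the large luminal cells that line the urothelium, were lower, as was *Dnmt3l*. All 11 markers were lower on both arrays, 9 passed the fold rule and 6 were called lower in limma, with a median log2 ratio of -1.46 and a range from -3.09 to -0.24. The 9 that passed the fold rule are genes that the study picked as lower on these arrays. Their count and direction were set by that choice and are not independent evidence. *Upk2* and *Upk3a*, the rest of the list, passed neither rule, with mean log2 ratios of -0.51 and -0.24. The summed signal of the list was 44650 and 47930 in the *Pparg-cKO* and 85390 and 73790 in the control pools. No marker was at background. *Krt20*, a keratin of terminally differentiated superficial cells, gave -3.14 and -3.03, and *Upk3a*, a subunit of the apical plaque, -0.31 and -0.17. In whole ureters, fewer cells of a type and less RNA per cell cannot be told apart, and the part of superficial cells in the *Dnmt3l* difference was not tested.
Of 10 markers of the urothelium as a whole, *Krt19* passed the fold rule as higher and *Upk1b* as lower, and 0 were called in limma (4 higher and 3 lower at an unadjusted p under 0.05). Markers of smooth muscle, mesenchyme, endothelium, blood and kidney had 0 past the fold rule or limma (at an unadjusted p under 0.05, 1 of mesenchyme and 1 of endothelium, both higher), with medians from -0.18 to 0.15.

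Nearness to *Dnmt3l* was sought among the genes tested, with symbols that are clone or probe identifiers left out. By levels over the 4 pools, centred on their mean, the 5 nearest were *Fam183b*, *Cyp4f15*, *Fam25c*, *Slc9a4* and *Cck*. Their Euclidean distances from *Dnmt3l* ran from 0.114 to 0.347 on the log2 scale. *Cyp4f15* encodes a cytochrome P450, *Slc9a4* a sodium proton exchanger and *Cck* the peptide hormone cholecystokinin. *Fam183b*, the nearest, gave 38.8 and 251 in the *Pparg-cKO* and control pools of the female pair and 30.8 and 243 in those of the male pair. The mean log2 ratios of the 5 genes ran from -2.30 to -2.06. None was in the list of superficial cell markers used here, which is not complete, and the study names *Fam25c* as a superficial cell gene. With 4 pools, the likeness rests almost wholly on the 2 ratios.

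The genes beside *Dnmt3l* on chromosome 10 did not share its difference. Within 300 kb of the probe lay 29 other probes of 23 genes, 23 of them well above background on both arrays. None of these was past 1.5-fold on either array, and their mean log2 ratios ran from -0.20 to 0.23. The nearest on 1 side, *Icosl*, a costimulatory ligand of T cells 16.1 kb away, gave -0.49 and 0.09. *Pfkl*, the liver phosphofructokinase, 75.2 kb away on the other side, gave -0.35 and 0.06. *Aire*, between *Pfkl* and *Dnmt3l*, was not well above background.

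**Figure D5:**
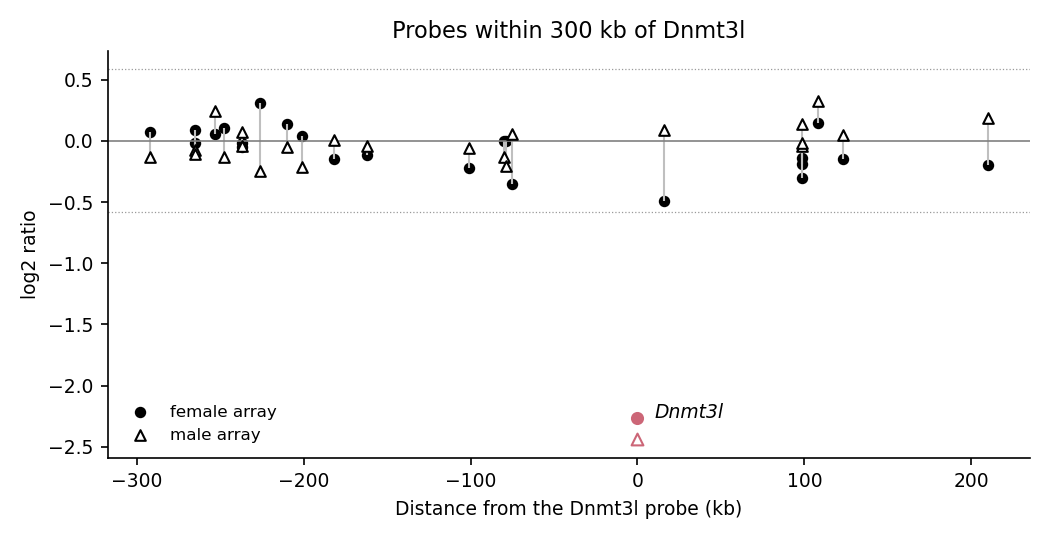
log2 ratio of Pparg-cKO over control on the female (filled circle) and the male array (open triangle) for the 23 probes well above background within 300 kb of the Dnmt3l probe, against distance from it in kb, with dotted lines at 1.5-fold and Dnmt3l in red. All neighbours lie between -0.49 and 0.33, and Dnmt3l lies below -2.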

How the data were processed

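Each of the 2 two-colour arrays held 174979 spots, read by the authors with Agilent Feature Extraction 10.7.3.1 (submitters' processing notes). The deposited scanner files hold intensity (mean signal, background, processed signal), a log10 ratio and quality flags per spot, and the deposited value table a signed fold change, treated as a score. Flagged spots (2.87% and 3.24%) and control spots were left out, and no spot was saturated. Means and backgrounds were corrected by normexp (offset 50) and normalised by loess within arrays in limma 3.58.1 (R 4.3.3), 4 spots a probe were averaged, and the brightest probe stood for a gene. The deposited signs were matched with processed signals floored at 6. Genes with at least 1 channel well above background on each array were tested (lmFit, eBayes, Benjamini-Hochberg) with 1 residual degree of freedom, and p-values cover the spread between 2 pairs of pools. Ratios of dim genes are compressed by the offset. The limma step was tested on simulated data.

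The 9 genes and all lists were chosen with earlier results of these data known. Named genes were all members, list genes past either rule (else the 2 largest), 5 nearest genes (clone and probe identifiers left out), neighbours and *Pparg*. *Prm2*, *Tnp1*, *Stag3*, *Apobec1* and the markers were named after their values were seen. Of listed symbols, 5 were not found under that name. Probe positions are those of the array design (mm9), promoters those of RefSeq (GRCm38.p6). The alternatives were no offset, processed signals, median centring, the deposited table, the median over probes, no filter on dim probes, and 1 array left out. The number of arrays limits the precision.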

Additional observations from a re-analysis of the deposited data

Results flagged for a closer look

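The upstream *Tet1* probe gave ratios of opposite sign on the female and the male array, each by at least 1.2-fold, and is the only 1 of the 21 member probes to do so. Its male minus female log2 ratio was -0.778, from 0.32 and -0.46. The difference was not tested, and sex, dye and pool cannot be told apart for it. The other 2 *Tet1* probes gave means of -0.02 and -0.03.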

How the results depend on the processing

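*Dnmt3l* kept its sign and its place past the fold rule under every alternative run. Its mean log2 ratio was -2.50 without a normexp offset, -2.62 with scanner-processed signals and -2.63 on the deposited table. Each of these moved beyond the spread between the arrays. With 1 array left out its log2 ratio ran from -2.44 to -2.26. For the other 8 members, 11 of 40 values under the other processing settings moved beyond the spread between the arrays. *Dnmt3a* ranged from -0.11 to 0.78 with 1 array left out. Members past the fold rule were 1 to 2 with 1 array left out, all genes 427 to 1156 against 258, germline genes 1 to 2, imprinted genes 0 to 2, and pathway partners 3 on either array against 2. Limma called 169 genes in all, 571 without an offset, 0 on the deposited table (2101 at an unadjusted p under 0.05, against 1914) and 94 without the filter on dim probes. Of the partners it called 1, and 3 without an offset, 0 with median centring, 0 on the deposited table and 0 without the filter (3, 8 and 10 at an unadjusted p under 0.05). With median centring 1 partner passed the fold rule. Limma called 0 germline genes on the deposited table (3 at an unadjusted p under 0.05). Each ratio is a difference within 1 pair of pools, so the limma test is already paired and no replicate block could be added.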
